A study of Mus musculus with 2 samples.

Results

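Proliferating cells were sought among CD11b+ and CD11c+ cells that infiltrated colorectal polyps of C57BL6/J mice. A cell barcode, the tag that marks the RNA of 1 droplet or well, was called proliferating when it held at least 1 UMI (unique molecular identifier, a count of 1 captured RNA molecule) of 3 or more of 8 genes, Pclaf, Top2a, Cdk1, Birc5, Stmn1, Spc24, Mki67 and Tk1. Of 6547 barcodes, 5849 were kept, with detected genes between 200 and 4000 and no more than 10% of UMIs from mitochondrial genes, and 230 of these 5849 were proliferating. The members were therefore chosen on measured values of the same barcodes, so the levels of the 8 genes and every contrast between proliferating and other barcodes below are descriptions of that choice.

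The study asked how loss of Clec7a, the gene of the β-glucan receptor Dectin-1, altered the cells that infiltrate colitis-associated polyps. There were 2 libraries, WT (wild-type mice) and KO (Clec7a-/- mice, which carry a deletion of that gene), each pooled from the cells of several mice. All mice were 26 weeks old and were taken 16 weeks into AOM-3DSS treatment, in which azoxymethane, a carcinogen, is followed by 3 rounds of the colitis agent dextran sodium sulfate at 1%. For these libraries, cells labelled for CD11b and CD11c were collected by flow cytometric sorting. The WT library held 3467 barcodes with 15869215 UMIs, of which 3147 barcodes were kept, and the KO library held 3080 barcodes with 11808230 UMIs, of which 2702 were kept. With 1 library per genotype there was no replicate, no test was possible, and mice and libraries cannot be told apart from genotype. All intervals below are exact 95% intervals for counting error only, binomial (Clopper-Pearson) for shares, Poisson for levels and conditional for ratios. In total, 17 barcode sequences occurred in both libraries, and 1 WT and 2 KO proliferating barcodes carried one of them.

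A dividing cell first copies its DNA in S phase, for which it makes nucleotides, loads the MCM helicase and the PCNA clamp on its chromosomes and packs the new DNA with histones. It then separates the copies in mitosis, which needs the kinase Cdk1 with cyclin B, condensins, kinetochores, a spindle of tubulin and the anaphase-promoting complex. Genes of the first step are known as targets of E2F factors, and genes of the second as targets of the DREAM and MuvB complexes at a promoter element called CHR (cell cycle genes homology region), often near CCAAT boxes bound by NF-Y. Most neutrophils and mature dendritic cells in tissue are known to have left the cycle, whereas resident macrophages and type 1 conventional dendritic cells (cDC1) can divide in place.

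The 8 genes cover both steps. Pclaf encodes a PCNA-binding protein and Tk1 thymidine kinase. Stmn1 encodes stathmin, which destabilizes microtubules. Top2a encodes the topoisomerase that untangles sister chromatids, Birc5 encodes survivin of the chromosomal passenger complex, Spc24 a kinetochore subunit and Mki67 the Ki-67 protein that coats mitotic chromosomes. Promoters of 6 of the 8 were found in RefSeq (GRCm38.p6), and those of Stmn1 and Spc24 are only named. The 4 stretches of 140 bases that end just before the start RefSeq gives for Cdk1, Top2a, Mki67 and Mcm6 are shown because the first 3 belong to the genes that chose the barcodes, while Mcm6, an MCM helicase subunit, stood outside the rule and was higher in the proliferating barcodes of both main lineages. All 4 genes lie on the minus strand. Capitals mark the CHR letters TTTGAA or TTTAAA, the CCAAT box and the E2F letters TTTCCCGC, TTTGGCGC, TTTCGCGC or TTTGCCGC on either strand, so that TTCAAA and ATTGG are matches on the other strand. TTTAAA is its own reverse complement, and in Mcm6 the run of 12 capitals holds overlapping E2F matches on both strands.
Cdk1, chr10:69352913-69353052: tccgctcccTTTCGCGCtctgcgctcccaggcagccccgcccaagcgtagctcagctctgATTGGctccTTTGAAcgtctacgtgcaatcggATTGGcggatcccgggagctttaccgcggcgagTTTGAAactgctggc
Top2a, chr11:99024190-99024329: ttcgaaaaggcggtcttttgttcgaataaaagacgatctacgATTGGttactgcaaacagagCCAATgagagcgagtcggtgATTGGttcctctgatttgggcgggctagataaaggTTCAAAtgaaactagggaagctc
Mki67, chr7:135716380-135716519: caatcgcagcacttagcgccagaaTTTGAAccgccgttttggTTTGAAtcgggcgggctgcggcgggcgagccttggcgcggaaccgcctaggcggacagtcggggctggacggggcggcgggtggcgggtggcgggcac
Mcm6, chr1:128359706-128359845: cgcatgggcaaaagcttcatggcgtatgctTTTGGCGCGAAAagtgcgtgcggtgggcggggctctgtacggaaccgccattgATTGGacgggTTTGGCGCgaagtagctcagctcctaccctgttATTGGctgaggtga

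The Cdk1 stretch held CHR, CCAAT and E2F letters, Top2a held CHR and CCAAT letters, Mki67 held CHR letters and Mcm6 held E2F and CCAAT letters. Over the window of 300 bases around each annotated start, all 6 rule genes that were found held CHR letters, 4 held CCAAT letters and 2 held E2F letters. The list of G2/M and mitosis genes held CHR letters in 69.9% of 83 promoters, against 22.2% of the 54 promoters of the G1/S and DNA replication list and 27.6% of all 32851 promoters. E2F letters were in 37.0% of the G1/S promoters, 7.23% of the G2/M promoters and 2.26% of all promoters. CHR and CCAAT letters occurred together in 56.6% of the G2/M promoters, 16.7% of the G1/S promoters and 10.7% of all promoters. A match is only a description of these letters, and no binding was measured here.

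Every one of the 8 genes was far more frequent in the proliferating barcodes, as the rule requires. Stmn1 was the most common, with a UMI in 97.8% of the 93 WT and 94.2% of the 137 KO members, but it was also found in 24.3% of the other kept WT barcodes and 18.6% of the other kept KO barcodes. Pclaf was seen in 68.8% of WT and 70.8% of KO members and in 0.655% and 0.897% of the other barcodes. Tk1 was the rarest, in 26.9% and 19.0% of members. Birc5 was detected in 63.4% of WT and 65.7% of KO members, Top2a in 60.2% and 56.9%, Cdk1 in 57.0% and 55.5%, and Spc24 in 48.4% and 53.3%. Mki67 was present in 55.9% of WT and 51.1% of KO members, and it was again less particular to them, with 7.04% and 9.36% of the other barcodes. Summed over barcodes and divided by all UMIs of the same barcodes (CPM, counts per 1000000 UMIs), Stmn1 stood at 666.8 CPM in WT and 623.2 CPM in KO members against 92.1 and 77.1 CPM in the other barcodes. On the same scale Pclaf stood at 244 and 267 CPM against 1.95 and 3.02 CPM. Because the other barcodes were so many, a low share of them was still a sizeable number: Cdk1 had a UMI in 53 WT and 76 KO members and in 57 WT and 56 KO other barcodes. A rule of at least 2 of the 6 genes without Stmn1 and Mki67 kept 211 of the 230 members and added 12 barcodes.

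In the GRCm38 gene annotation with Ensembl identifiers the 8 protein-coding genes lay on 5 chromosomes. Of the 6 rule genes found in RefSeq, only Top2a has the same start in this annotation. The last bases of the Cdk1 stretch above, its second CHR match included, lie inside the gene as given here. Birc5 (ENSMUSG00000017716) is at chr11:117849251-117855743, Tk1 (ENSMUSG00000025574) at chr11:117815526-117826092 and Top2a (ENSMUSG00000020914) at chr11:98992943-99024189. Pclaf (ENSMUSG00000040204) is at chr9:65890237-65903266, and Spc24 (ENSMUSG00000074476) at chr9:21755442-21760303. Cdk1 (ENSMUSG00000019942) is at chr10:69335146-69352938, Mki67 (ENSMUSG00000031004) at chr7:135689784-135716361 and Stmn1 (ENSMUSG00000028832) at chr4:134468320-134473843.

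Cell cycle RNA outside the rule was higher in barcodes just inside the threshold of 3 genes than in those just outside it. The G1/S and DNA replication list (60 genes, none of the 8) had a summed level of 1156 CPM in WT and 1180 CPM in KO barcodes with no rule gene. With 2 rule genes, just outside, it was 1312 CPM in 131 WT and 1190 CPM in 114 KO barcodes. With 3 rule genes, just inside, it was 2099 CPM in 28 WT and 1826 CPM in 43 KO barcodes. The G2/M and mitosis list (88 genes without the rule genes) moved in parallel, from 986 and 932 CPM at 2 genes to 1494 and 1810 CPM at 3 genes, and both lists were highest in the 5 WT and 2 KO barcodes with all 8 genes. In those barcodes the G1/S list reached 7048 CPM in WT and 10381 CPM in KO, and the G2/M list 5787 and 10866 CPM. The median depth was 7290 UMIs at 2 genes and 7916.5 at 3 genes in WT, and 6494.5 and 6423 UMIs in KO, and its part in these levels was not tested.

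**Figure D1:**
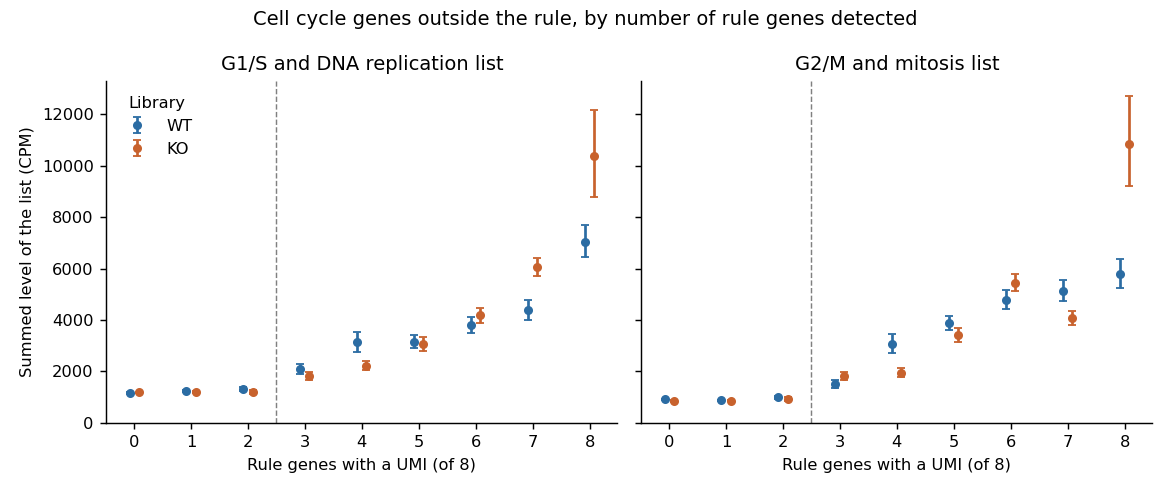
Summed level (CPM, linear axis from 0) of the G1/S and DNA replication list and of the G2/M and mitosis list against the number of the 8 rule genes with a UMI, in the WT and KO libraries; points are sums over all kept barcodes of a bin, bars are exact 95% Poisson intervals and the dashed line is the threshold of 3. Both lists changed little up to 2 genes (986 and 932 CPM for G2/M at 2) and higher from 3 genes on (1494 and 1810 CPM).

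Proliferating barcodes made up 2.96% (interval 2.39 to 3.61) of the kept WT barcodes, 93 of 3147, and 5.07% (4.27 to 5.97) of the kept KO barcodes, 137 of 2702. The log2 ratio of KO over WT was 0.78 (0.39 to 1.17), and it has no replicate check. Because the rule counts detected genes, deeper barcodes meet it more easily, and members were deep, with a median of 8414 UMIs in WT and 7693 in KO against 3298 and 2715 in the other kept barcodes. When every barcode was thinned to 1000 UMIs, and 253 WT and 378 KO barcodes below that were left out, 19 of 2894 WT (0.657%) and 28 of 2324 KO barcodes (1.205%) still met the rule, a log2 ratio of 0.88 (-0.02 to 1.80). The direction was thus the same at equal depth, with an interval that reached 0. Members also had a higher median share of mitochondrial UMIs, 4.35% in WT and 4.56% in KO, against 2.95% and 3.69% in the other kept barcodes.

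To place the members in a lineage without letting the cell cycle define it, clusters were drawn from the non-proliferating barcodes only, with 278 cell cycle genes left out of the features, and each member took the class of its 15 nearest such barcodes. All 15 neighbours belonged to 1 class for 186 members (80.9%), 9 to 14 did for 37 members, and 7 members had no class. Classes were named from marker genes, and the proliferating macrophage-like and cDC1-like barcodes together formed most of the members. Of the 93 WT members 47 were macrophage-like, 19 cDC1-like, 8 T or NK cell-like, 6 epithelial cell-like, 5 cDC2-like, 2 mature DC-like, 2 mast cell or basophil-like, 1 B or plasma cell-like, 1 in an unnamed cluster led by Ccl24, Pla1a and Slco4a1, and 2 without a class. Of the 137 KO members 57 were cDC1-like, 39 macrophage-like, 11 T or NK cell-like, 10 mature DC-like, 7 cDC2-like, 5 epithelial cell-like, 1 mast cell or basophil-like, 2 in the Ccl24-led cluster, and 5 without a class.

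No neutrophil-like or monocyte-like barcode met the rule. Neutrophil-like barcodes should lack these transcripts and so measure free RNA, but only at their own depth. Of them, 0 of 497 WT and 0 of 86 KO barcodes were called, and Top2a was seen in 0.604% and 1.16%. Monocyte-like barcodes gave 0 of 331 in WT and 0 of 236 in KO. Median depths in WT and KO were 2803 and 1798.5 UMIs in neutrophil-like and 2659 and 2181 UMIs in monocyte-like barcodes. Members had 8414 and 7693 UMIs, so these counts of 0 do not measure free RNA at the depth of members. A mixed neutrophil and monocyte cluster of 349 barcodes and an unnamed cluster of 510 barcodes led by Col15a1 also held none, the latter with a median of only 977 UMIs, a depth at which dividing cells may not have been detectable. Scrublet, a doublet caller, called 0 of 3467 WT and 1 of 3080 KO barcodes, and its calls were not used. The part of doublets in the counts was not tested.

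Proliferating barcodes were a sizeable part of the cDC1-like class. Of 160 WT cDC1-like barcodes 11.9% (7.30 to 17.9) were proliferating, and of 339 KO barcodes 16.8% (12.99 to 21.2), a log2 ratio of 0.50 (-0.27 to 1.33). The macrophage-like class had 6.77% (5.02 to 8.90) of 694 in WT and 8.92% (6.42 to 12.0) of 437 in KO, a log2 ratio of 0.40 (-0.25 to 1.04). Neither difference between the libraries was larger than counting error. After thinning to 1000 UMIs the cDC1-like counts were 5 of 156 in WT and 8 of 335 in KO, so the log2 ratio turned to -0.42 (-2.22 to 1.53), and no order of the libraries can be read for this class. The T or NK cell-like class had 10.7% (4.72 to 19.9) of 75 barcodes in WT and 6.75% (3.42 to 11.8) of 163 in KO. These barcodes were shallower, with medians of 2046 and 1482 UMIs against 5947.5 and 5323 UMIs in the cDC1-like class. Thinned to 1000 UMIs, 2 of 61 (3.28%, 0.400 to 11.3) and 7 of 116 (6.03%, 2.46 to 12.0) T or NK cell-like barcodes met the rule, against 3.21% (1.05 to 7.32) and 2.39% (1.04 to 4.65) of cDC1-like barcodes, so these classes cannot be ordered. The mast cell or basophil-like class held 2 of 28 and 1 of 7. Unthinned, the cDC2-like class, at 2.81% and 2.94%, and the mature DC-like class, at 1.12% and 2.65%, were lower than the cDC1-like class, and the intervals of both lay under those of cDC1-like barcodes within each library. They were shallower too, with medians of 2652.5 and 3000.5 UMIs (cDC2-like) and 3985 and 3746 UMIs (mature DC-like). Thinned to 1000 UMIs, 0 of 150 (which allows up to 2%) and 2 of 212 cDC2-like and 0 of 164 (up to 1.83%) and 1 of 353 mature DC-like barcodes met the rule, and their intervals overlapped those of cDC1-like barcodes.

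The makeup of the members also differed between the libraries. cDC1-like barcodes were 20.4% (12.8 to 30.1) of WT members and 41.6% (33.3 to 50.3) of KO members, a log2 ratio of 1.03 (0.26 to 1.86). Macrophage-like barcodes were 50.5% (40.0 to 61.1) of WT and 28.5% (21.1 to 36.8) of KO members, a log2 ratio of -0.83 (-1.48 to -0.18). T or NK cell-like barcodes were 8.60% and 8.03%. The class sizes differed in the same direction, with 339 cDC1-like and 437 macrophage-like barcodes in the KO library and 160 and 694 in the WT library. Thinned to 1000 UMIs, the log2 ratio for cDC1-like members was 0.12.

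**Figure D2:**
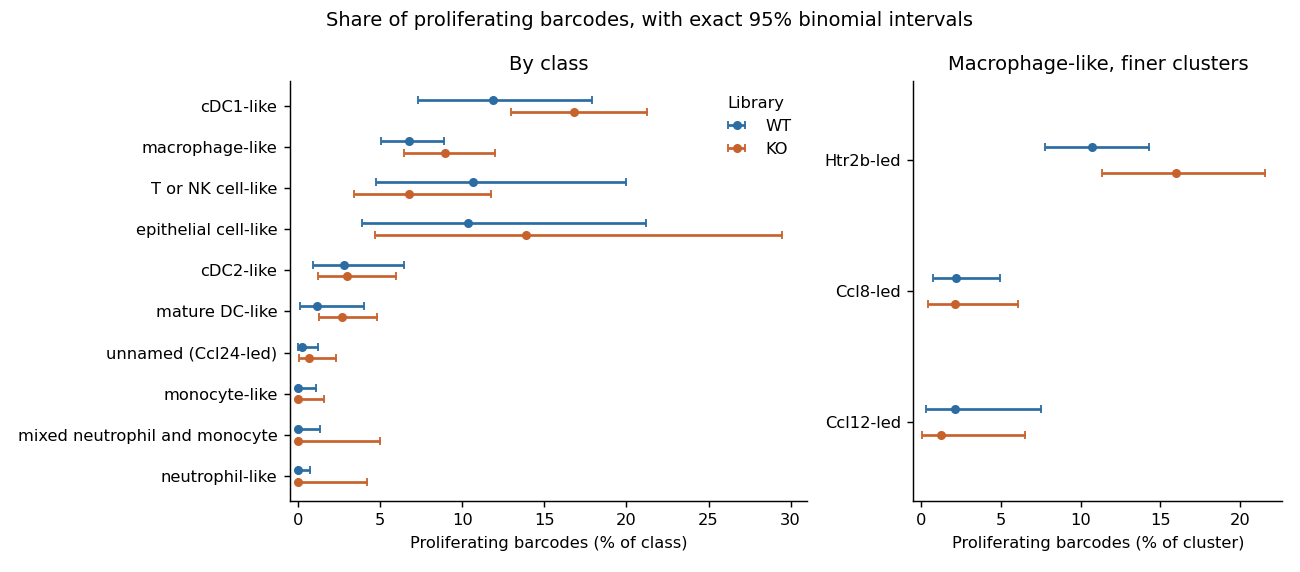
Share of proliferating barcodes (%) in each class (left) and in the 3 finer macrophage-like clusters (right) of the WT and KO libraries; points are shares and bars exact 95% binomial intervals. cDC1-like barcodes reached 11.9% in WT and 16.8% in KO, neutrophil-like and monocyte-like barcodes were at 0, and among macrophage-like barcodes the Htr2b-led cluster stood at 10.7% and 16.0% against 2.15% and 2.13% in the Ccl8-led one.

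Within the macrophage-like class the members concentrated in 1 of 3 finer clusters, drawn at a resolution of 1.2. The cluster led by Htr2b, Speg, Igf1 and Colec12 held 40 members among 373 WT barcodes (10.7%, 7.77 to 14.3) and 34 among 213 KO barcodes (16.0%, 11.3 to 21.6). The cluster led by Ccl8, C6, Pgf and Ppbp held 5 of 233 (2.15%, 0.700 to 4.94) and 3 of 141 (2.13%, 0.441 to 6.09). Unthinned, the intervals of these clusters did not overlap in either library. Their median depths were 8734 and 6909 UMIs in the Htr2b-led cluster and 7113 and 6593 UMIs in the Ccl8-led cluster, and after thinning to 1000 UMIs 8 of 373 and 7 of 213 against 1 of 231 and 0 of 140 barcodes met the rule, and the intervals then overlapped in both libraries. The third cluster, led by Ccl12, had 2 members of 94 barcodes in WT and 1 of 83 in KO, at median depths of only 1007 and 1651 UMIs.

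Macrophage-like members had a summed level of 14099 CPM in WT and 17143 CPM in KO for the 10 macrophage markers, which include the complement gene C1qa and the lipid carrier gene Apoe, against 15313 and 20963 CPM in the other macrophage-like barcodes. The cDC1 markers Clec9a, Itgae and Snx22 were at 0 UMIs in them in both libraries, as were Cd3d and Cd3g of T cells. The most abundant neutrophil marker in the macrophage-like members was Il1r2, which macrophages and dendritic cells can also express. The 10 neutrophil markers summed to 1316 and 1134 CPM in members against 1930 and 1417 CPM in the other macrophage-like barcodes. Placing each barcode by its highest mean marker level gave the same class for 42 of 47 WT and 39 of 39 KO macrophage-like members.

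cDC1-like members had RNA of the cDC1 genes Xcr1, Clec9a and Itgae and also of dendritic cell maturation genes. Xcr1, the chemokine receptor that marks cDC1, stood at 462 CPM in WT and 448 CPM in KO members and at 440 and 439 CPM in the other cDC1-like barcodes. The 8 cDC1 markers summed to 1571 and 1419 CPM in members and 1587 and 1674 CPM in the others, with Snx22 at 0 in members. Ccr7, the receptor that guides dendritic cells to lymph nodes, was at 1621 and 1415 CPM in members and 2154 and 1940 CPM in the others, and the 8 mature DC markers summed to 2374 and 1758 CPM against 3264 and 2933 CPM. By the highest mean marker level only 3 of 19 WT and 19 of 57 KO members were placed as cDC1, against 67 of 160 and 171 of 339 barcodes of the whole class, so the class rests on neighbours and on Xcr1, Clec9a and Itgae rather than on the whole list. The WT members had more macrophage marker RNA than the others, 441 against 92.9 CPM with Apoe at 192 CPM, while the KO members had 80.5 against 157 CPM; the part of this RNA in the results was not tested.

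The first comparison was between the 47 WT and 39 KO proliferating macrophage-like barcodes and the 647 and 398 other macrophage-like barcodes of the same library. Summed over whole gene lists without the 8 rule genes and with no filter on low values, RNA of DNA replication and of mitosis was higher in members in both libraries. The G1/S and DNA replication list stood at 3210 CPM in WT members against 1277 CPM in other WT barcodes, a log2 ratio of 1.33 (1.25 to 1.41), and at 3131 against 1279 CPM in KO, a log2 ratio of 1.29 (1.19 to 1.39). The G2/M and mitosis list rose more, to 3551 against 841 CPM in WT (log2 2.08, 1.996 to 2.16) and 2691 against 828 CPM in KO (1.70, 1.59 to 1.81). Nucleotide synthesis genes had log2 ratios of 1.26 (1.15 to 1.37) and 1.198 (1.06 to 1.34). Tubulin genes were at 2691 against 1246 CPM and 2931 against 1323 CPM, log2 ratios of 1.11 and 1.15. Replication-dependent histone genes, most of whose transcripts lack the poly(A) tail that this kind of assay captures, were at 302 against 167 CPM in WT and 310 against 203 CPM in KO, log2 ratios of 0.86 (0.60 to 1.11) and 0.61 (0.30 to 0.91).

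Outside the cycle, MHC class II genes, which present antigen to CD4+ T cells, were lower in members, at 19875 against 27284 CPM in WT (log2 -0.46, -0.49 to -0.43) and 16103 against 29843 CPM in KO (-0.89, -0.93 to -0.85). Nuclear OXPHOS genes were higher, with log2 ratios of 0.34 and 0.35. Cytosolic ribosomal protein genes were at 0.19 and 0.36, cell cycle inhibitors at -0.22 and -0.21, and lineage transcription factors at -0.26 and -0.35. Interferon-stimulated genes were lower in KO members (-0.56, -0.83 to -0.30), with an interval that included 0 in WT (0.09, -0.12 to 0.29). Inflammatory cytokine and PGE2 synthesis genes were lower in WT members (-0.32, -0.37 to -0.27), with an interval that included 0 in KO (0.02, -0.04 to 0.08). When both groups were taken from the Htr2b-led cluster alone, the MHC class II log2 ratios shrank to -0.21 and -0.40, while those of the G2/M list were 2.08 and 1.71.

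**Figure D3:**
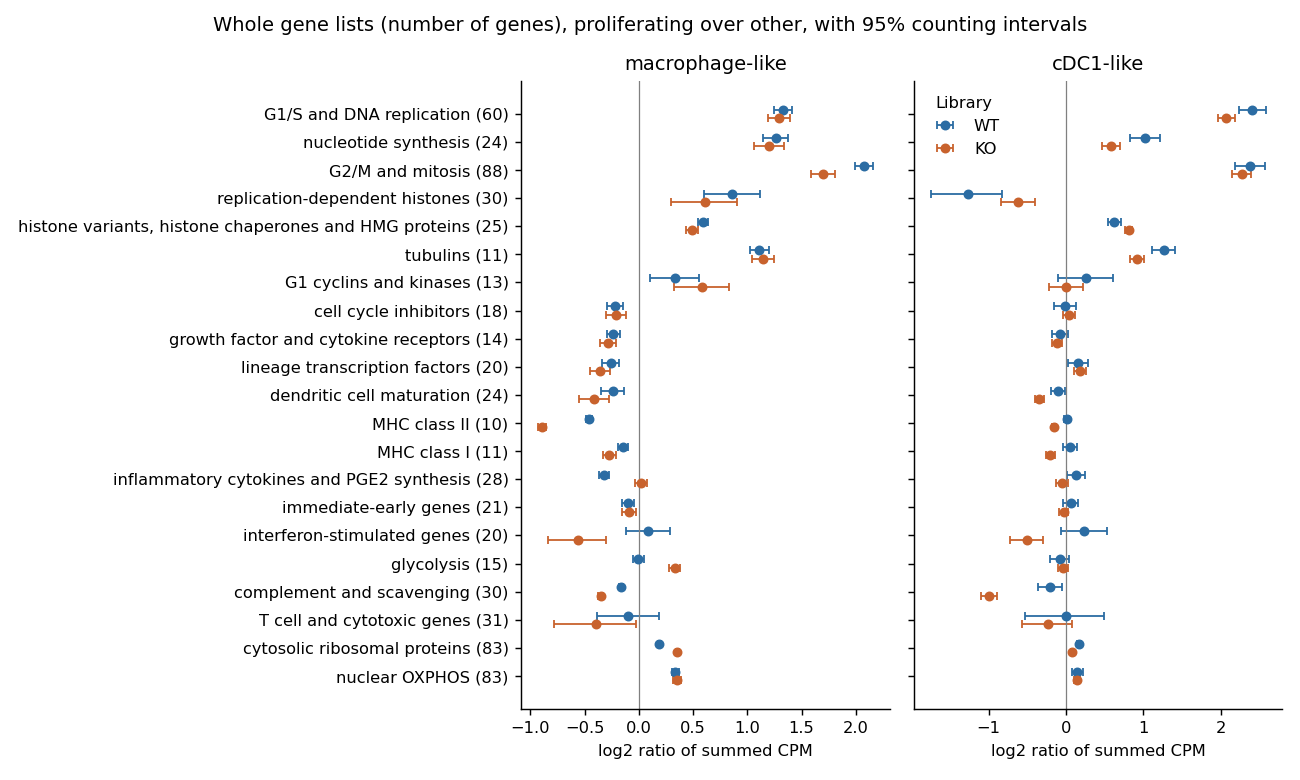
log2 ratio of the summed level (CPM) of each whole gene list, proliferating over other barcodes, in macrophage-like (left) and cDC1-like barcodes (right) of the WT and KO libraries; the number of genes in a list stands in parentheses and bars are 95% counting intervals. The G1/S, G2/M and tubulin lists lay to the right of 0 in both classes, MHC class II lay to the left in macrophage-like barcodes (-0.46 and -0.89), and replication-dependent histones lay on opposite sides in the 2 classes (0.86 and 0.61 against -1.27 and -0.62).

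Gene by gene, 2989 genes had a mean of at least 50 CPM over the 4 groups of barcodes. A gene was called when its log2 ratio, taken after adding 0.5 UMI, passed 1 (2-fold) the same way in both libraries, which is a rule of size and not a test. By that rule 41 genes (1.37%) were higher and 11 (0.368%) lower in macrophage-like members. Of the 36 higher genes outside the rule genes, 22 were in the cell cycle lists. Many of these had passed the filter only through their level in the members. Of 11 tested G2/M genes 5 had at least 50 CPM in the other barcodes alone, and of these 5 none was called, whereas 5 of the remaining 6 were. Of 14 tested G1/S genes 4 had that level and 8 of the remaining 10 were called, so that these counts only restate the choice of members. Over all tested genes, 2840 had that level in the other barcodes and 12 of them (0.423%) were called higher. The median log2 ratio over all tested genes was 0.01 in WT and 0.02 in KO.

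The genes Mcm5, Mcm3 and Mcm6 were near the floor in the other macrophage-like barcodes and passed the filter only through their level in the members. Mcm5, a subunit of the MCM helicase, was at 146 CPM in WT and 122 CPM in KO members against 15.7 and 9.94 CPM in the others, log2 ratios of 3.22 and 3.60. Mcm3 was at 122 and 105 CPM against 22.97 and 22.8 CPM, and Mcm6 at 101 and 99.6 CPM against 16.1 and 21.1 CPM. The levels of these 3 subunits were thus several times higher in members of both libraries. Pcna, which encodes the sliding clamp and is also used in DNA repair, was the most abundant gene of the list and changed less, at 742 and 797 CPM against 428 and 411 CPM (0.80 and 0.96), under the 2-fold rule. Rrm2, the regulated subunit of ribonucleotide reductase, stood at 118 and 91.3 CPM against 1.72 and 2.07 CPM, log2 ratios of 6.02 and 5.35. The purine synthesis gene Paics (1.47 and 1.69) and the mitochondrial serine hydroxymethyltransferase gene Shmt2 (1.78 and 1.19) were higher too. Like the MCM genes, Rrm2 and Shmt2 passed the filter only through the members, whereas Paics did not.

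Of the mitotic genes, Ube2c, the ubiquitin-conjugating enzyme of the anaphase-promoting complex, was at 146 CPM in WT and 83.0 CPM in KO members and at 4.29 and 5.80 CPM in the other barcodes (5.06 and 3.81). Smc4, a condensin subunit, was at 146 and 71.9 CPM against 11.6 and 16.99 CPM (3.65 and 2.09). Both were lower in KO than in WT members, as was the G2/M sum, with 1 library each. Tacc3, a spindle protein, had log2 ratios of 3.97 and 4.12, and Cks1b, a small partner of Cdk1, 3.20 and 2.77. Of the genes with at least 50 CPM in the other macrophage-like barcodes, 3 of 13 histone variant, chaperone and HMG genes and 2 of 7 tubulin genes were called higher. Hmgb2, a high-mobility-group protein of chromatin, rose from 65.9 to 304 CPM in WT and from 67.5 to 282 CPM in KO (2.21 and 2.07). Tuba1b, an α-tubulin, rose from 151 to 941 CPM and from 188 to 1090 CPM (2.64 and 2.53), and the β-tubulin Tubb5 had log2 ratios of 1.35 and 1.55.

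Of the higher genes outside the lists, Tmpo, which encodes the lamina-associated LAP2 proteins, was at 138 CPM in WT and 96.8 CPM in KO members against 10.3 and 14.9 CPM (3.74 and 2.70). Selenoh, a nuclear selenoprotein, was at 136 and 158 CPM against 31.4 and 40.6 CPM. Spdl1, a spindle adaptor for dynein, had log2 ratios of 1.87 and 1.84, and the chromatin genes Nucks1, Cbx3, Dek and Hat1 had ratios of 1.82 and 1.73, 1.67 and 1.42, 1.32 and 1.54, and 1.37 and 1.29. Lsm5, an RNA-processing gene, had 1.93 and 1.36, and AI506816 1.21 and 1.18. Tnfsf13b, which encodes the B cell survival factor BAFF, was at 132 CPM in WT and 144 CPM in KO members against 43.2 and 45.2 CPM in the others (1.62 and 1.68), and within the Htr2b-led cluster its log2 ratios were 1.37 and 1.22. The interferon-induced chemokine gene Cxcl10 was higher as well, at 71.0 and 122 CPM against 19.3 and 54.3 CPM (1.89 and 1.18), but 12 of its 35 WT and 28 of its 44 KO UMIs were in 1 barcode each. Of the genes named here, only Cbx3, Dek and AI506816 averaged at least 50 CPM in the other barcodes alone. The rest passed the filter only through the members.

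Of the 11 lower genes, Spp1, which encodes osteopontin, was at 485 CPM in WT and 304 CPM in KO members against 1112 and 786 CPM (-1.20 and -1.36). Mmp13, a collagenase gene, was at 264 and 238 CPM against 693 and 600 CPM (-1.39 and -1.33). Mmp9, a gelatinase gene, was at 44.6 and 183 CPM against 544 and 576 CPM (-3.57 and -1.65), but 63 of its 66 KO UMIs came from 1 barcode. Ppbp, a CXC chemokine gene, was at 6.08 and 11.1 CPM, from 3 and 4 UMIs, against 182 and 89.1 CPM. S100a4 (-1.35 and -3.04), Zfp36l1 (-1.33 and -1.41) and the ubiquitin ligase gene Fbxo32 (-1.33 and -1.02) were also lower, and the Fc receptor gene Fcgr4 fell just short of the rule (-0.99 and -1.16). Ccl24, a chemokine gene, was lower too (-1.41 and -1.79), but its mean log2 ratio turned to 0.12 with the other barcodes weighted to the cluster makeup of the members and to 1.08 within the Htr2b-led cluster. Il10 was at 4.06 and 19.4 CPM, from 2 and 7 UMIs, against 131 and 60.5 CPM (-4.69 and -1.55), and Cd274, which encodes PD-L1, had log2 ratios of -1.17 and -1.01.

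Ppbp was also a leading gene of the Ccl8-led cluster, which held few members. When the other barcodes were weighted to the cluster makeup of the members, 38 genes were at least 2-fold higher, 36 of them among the 41, and of the 11 lower genes only 3 remained, among them S100a4 (-1.29 and -2.55) and Spp1 (-1.09 and -1.32). Mmp9 then had log2 ratios of -2.39 and -0.74. Within the Htr2b-led cluster alone, 42 genes were higher, 35 of them among the 41, and 6 were lower, 5 of them among the 11, including Spp1 (-1.10 and -1.61), S100a4 (-2.29 and -2.36) and Mmp9 (-1.79 and -4.76, from 11 and 2 UMIs in members). Of the macrophage identity genes, C1qa had unweighted log2 ratios of 0.07 and 0.16, while Apoe was at 3640 against 5275 CPM in WT and 5373 against 8909 CPM in KO (-0.53 and -0.73), and H2-Aa, an MHC class II chain, at 7119 against 9771 CPM and 5492 against 10493 CPM (-0.46 and -0.93). Weighted to the cluster makeup, Apoe had -0.49 and -0.57 and H2-Aa -0.19 and -0.27.

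The second comparison was between the 19 WT and 57 KO proliferating cDC1-like barcodes and the 141 and 282 others of that class. Whole lists of DNA replication and mitosis were higher in members in both libraries, with larger ratios than in macrophage-like barcodes for both lists. The G1/S list was at 3683 against 694 CPM in WT (log2 2.41, 2.24 to 2.58) and 3210 against 765 CPM in KO (2.07, 1.96 to 2.18). The G2/M list was at 2815 against 543 CPM (2.38, 2.18 to 2.57) and 2754 against 572 CPM (2.27, 2.14 to 2.39). Members of both lineages thus reached similar G1/S levels, 3210 and 3131 CPM in macrophage-like and 3683 and 3210 CPM in cDC1-like members, while the other cDC1-like barcodes lay lower than the other macrophage-like ones. Nucleotide synthesis genes had log2 ratios of 1.02 and 0.58, tubulins of 1.26 and 0.92, and histone variants, chaperones and HMG proteins of 0.62 and 0.81.

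Replication-dependent histone genes were lower in cDC1-like members, at 306 against 737 CPM in WT (-1.27, -1.75 to -0.82) and 429 against 659 CPM in KO (-0.62, -0.84 to -0.40). This sum was dominated by Hist1h1c, a linker histone gene, which was at 249 against 653 CPM in WT and 301 against 553 CPM in KO (-1.37 and -0.87). MHC class II genes hardly moved, with log2 ratios of 0.01 and -0.16. Dendritic cell maturation genes had ratios of -0.10 and -0.35, and complement and scavenging genes, of which Lyz2 is the most abundant, -0.20 and -0.99. Interferon-stimulated genes were at 0.24 (-0.07 to 0.53) in WT, an interval that included 0, and at -0.51 (-0.73 to -0.29) in KO.

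Of 2784 tested genes, 59 (2.12%) were at least 2-fold higher and 11 (0.395%) at least 2-fold lower in cDC1-like members in both libraries. With classes by the highest mean marker level 67 were higher and 15 lower, and only 25 of the 59 and 6 of the 11 were among them. Of the 53 higher genes outside the rule genes 28 were in the cell cycle lists. As in macrophage-like barcodes, most of these had passed the filter only through the members: 2 of 12 tested G1/S genes and 3 of 7 tested G2/M genes had at least 50 CPM in the other barcodes alone, and Pcna was the only one of these 5 to be called. Over all tested genes 2607 had that level and 18 of them (0.690%) were called higher.

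Mcm5 was at 320 CPM in WT and 217 CPM in KO members against 8.95 and 14.1 CPM in the other cDC1-like barcodes (5.09 and 3.92). Mcm6 was at 171 and 140 CPM against 5.59 and 14.7 CPM (4.82 and 3.23), and Mcm3 at 164 and 186 CPM against 11.2 and 16.6 CPM (3.83 and 3.46). Pcna was at 640 and 666 CPM against 291 and 303 CPM (1.14 and 1.14). In each of these genes both groups of members lay above both groups of other barcodes. Rrm1, the large subunit of ribonucleotide reductase, was at 156 and 99.03 CPM against 4.48 and 9.58 CPM, and Rrm2 at 164 and 94.9 CPM against 1 UMI in the other barcodes of each library. Hmgb2 was at 519 and 728 CPM against 128 and 144 CPM (2.03 and 2.34), and Hmgn2, another HMG protein, had log2 ratios of 3.13 and 2.61. Tuba1b was at 1045 and 860 CPM against 150 and 236 CPM (2.80 and 1.87), and Tubb5 had ratios of 2.25 and 2.13. Rrm1, Rrm2 and Hmgn2 also passed the filter only through their level in the members.

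Among the higher genes outside the lists, Topbp1, a scaffold of replication initiation and the checkpoint, was at 99.5 CPM in WT and 76.3 CPM in KO members against 16.8 and 7.66 CPM (2.57 and 3.28). Ptma, which encodes prothymosin α, was by far the most abundant of them, at 3277 and 3105 CPM against 931 and 1040 CPM (1.82 and 1.58). Vrk1, a chromatin kinase gene, was at 128 and 186 CPM against 39.2 and 58.8 CPM, and Psat1, an enzyme of serine synthesis, at 128 and 92.8 CPM against 23.5 and 31.9 CPM. Also among the 10 highest of these were Rangap1 (2.28 and 1.57), Mad2l1bp (2.07 and 1.57), Rfwd3 (2.22 and 1.55), Nucks1 (1.78 and 1.55), Gm43305 (1.74 and 1.78) and Lsm2 (1.58 and 1.47). Of these 10, only Ptma averaged at least 50 CPM in the other barcodes alone, and the rest passed the filter only through the members. Il7r, the interleukin-7 receptor chain, was at 92.4 and 128 CPM against 45.9 and 60.7 CPM (1.05 and 1.08).

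Most of the lower genes of cDC1-like members had few UMIs in WT members. Rasgef1b, a Ras exchange factor gene, was at 92.4 and 59.8 CPM, from 13 and 29 UMIs, against 232 and 184 CPM (-1.27 and -1.60). Traf4, an adaptor gene of the TRAF family, was at 35.5 and 22.7 CPM, from 5 and 11 UMIs, against 106 and 91.3 CPM (-1.45 and -1.95). Ass1 (-1.46 and -1.22), the tight-junction gene F11r (-1.27 and -1.12), Rtl8b (-1.62 and -1.34), Tbl1x (-1.10 and -1.17) and Rusc1 (-2.66 and -1.06) were lower as well. Rhoc had -1.09 (-2.88 to 0.07, from 5 UMIs in WT members) and -1.89, and its mean ratio turned to 0.42 with classes by marker level. Rtn1 was just past 2-fold (107 and 90.8 against 220 and 183 CPM), and Gclc, the rate-limiting enzyme of glutathione synthesis, fell short in KO (-1.32 and -0.95). Cd200, a maturation marker that restrains myeloid cells, was at 28.4 and 18.6 CPM against 101 and 88.8 CPM. Lyz2, lysozyme, was at 739 and 609 CPM against 1714 and 2054 CPM (-1.21 and -1.75), with 50 of the 104 WT UMIs in 1 barcode. Xcr1 (0.08 and 0.03), H2-Aa (0.06 and -0.14), Cd74 (-0.30 and -0.33) and Ccr7 (-0.41 and -0.45) differed by less than 2-fold.

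**Figure D4:**
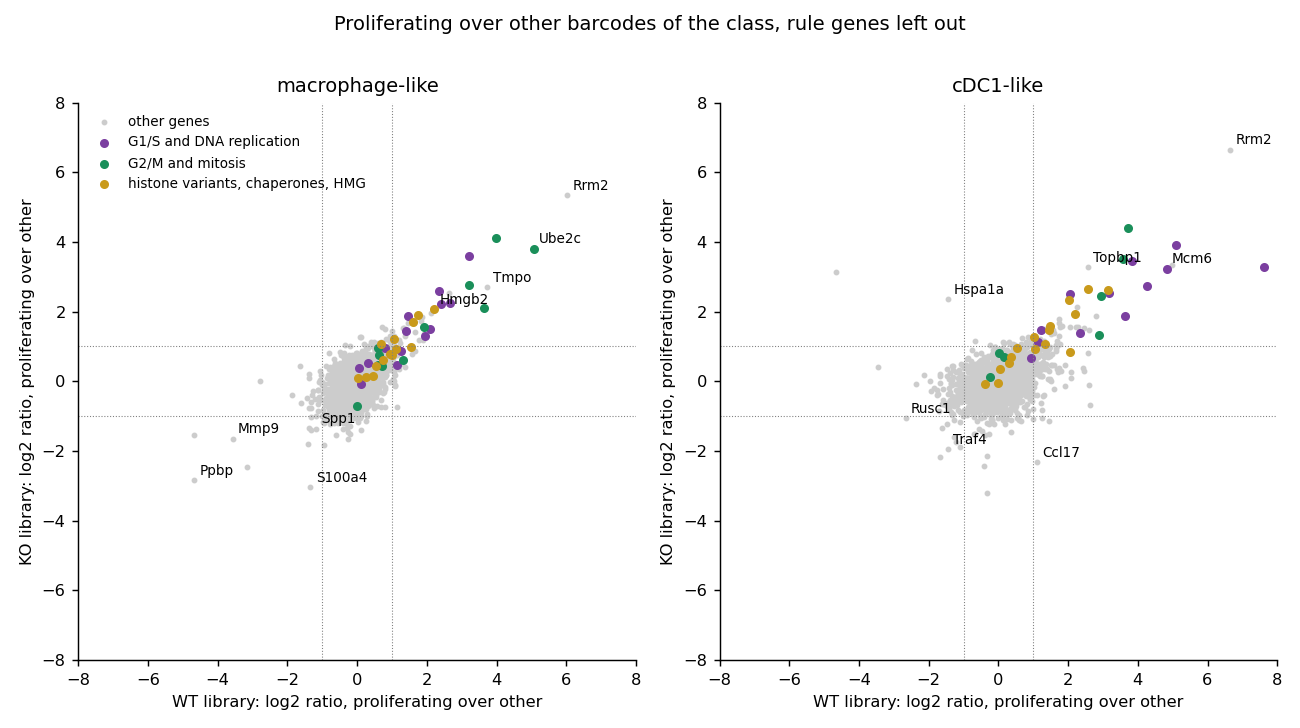
log2 ratio of proliferating over other barcodes in the WT library (x axis) and the KO library (y axis) for each tested gene outside the 8 rule genes, in macrophage-like (left) and cDC1-like barcodes (right); dotted lines mark 2-fold. Most genes lay near the origin, genes of the G1/S, G2/M and chromatin lists extended to the upper right in both classes, and lower genes such as Spp1 (-1.20 and -1.36) and Traf4 (-1.45 and -1.95) lay at the lower left.

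The 2 lineages shared 19 higher genes outside the rule genes, which was 52.8% of the 36 in macrophage-like and 35.8% of the 53 in cDC1-like barcodes. They were Mcm3, Mcm4, Mcm5, Mcm6, Fen1, Lig1, Rpa1 and Rrm2 of replication, Cks1b, Smc4 and Tacc3 of mitosis, H2afv, Hmgb2, Hmgn2, Dek, Nucks1 and Tmpo of chromatin and the nuclear envelope, and the tubulins Tuba1b and Tubb5. Over all tested genes, rule genes included, 1.37% of 2989 in macrophage-like and 2.12% of 2784 in cDC1-like barcodes were called higher. None of the 11 lower genes of each class was shared. The replication and mitosis genes among the 19 had passed the filter only through the members in both classes. The rule chose members of both lineages by the same 8 genes, so the overlap of 19 genes is a description as well.

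**Figure D5:**
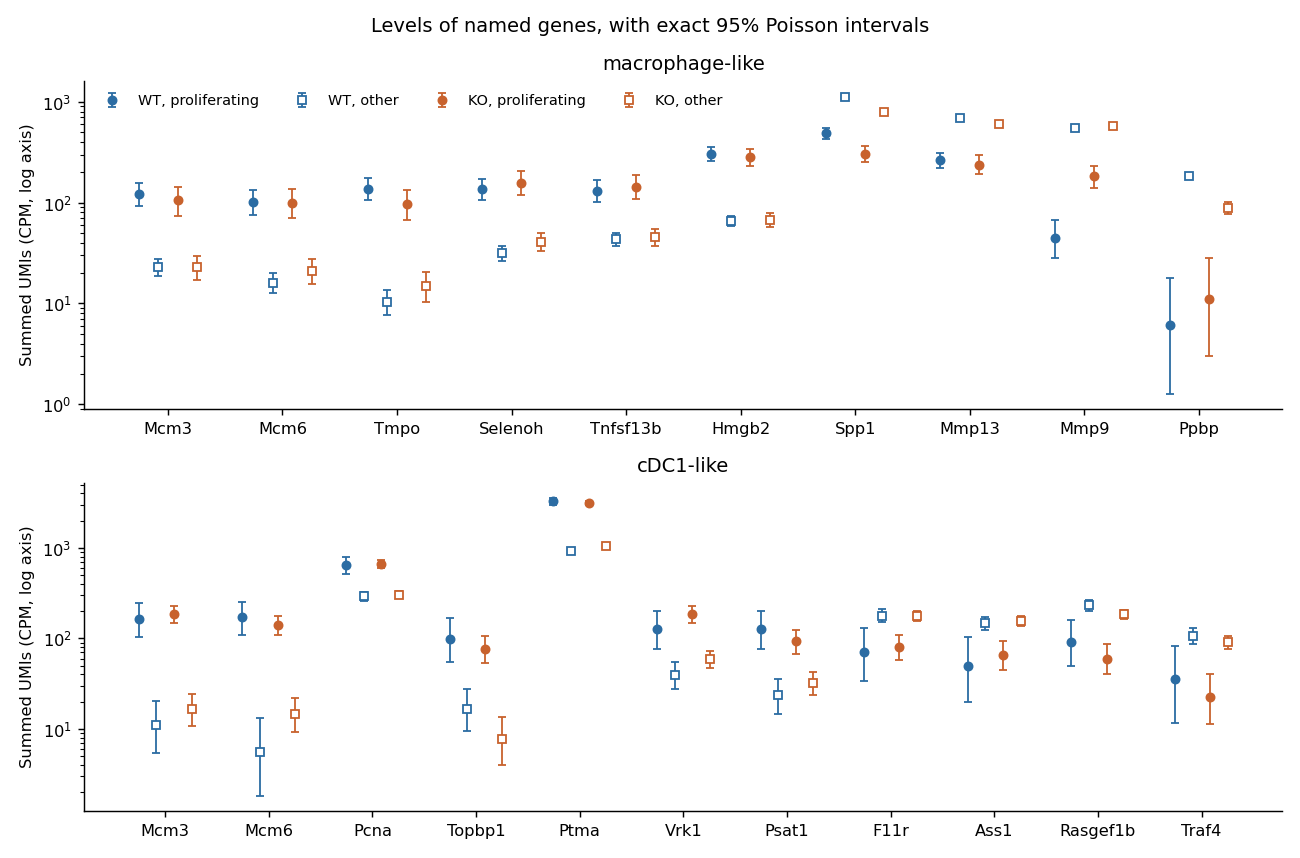
Levels (summed CPM, log axis) of named genes in macrophage-like (top) and cDC1-like barcodes (bottom), filled circles for proliferating and open squares for other barcodes of the WT and KO libraries, with exact 95% Poisson intervals. Filled circles lay above the squares for genes such as Mcm6 in both classes and below them for Spp1 (485 and 304 against 1112 and 786 CPM) and Rasgef1b (92.4 and 59.8 against 232 and 184 CPM).

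The balance between the phases was described by the ratio of G2/M over G1/S UMIs. In macrophage-like members its log2 was 0.15 (0.05 to 0.24) in WT and -0.22 (-0.34 to -0.09) in KO, against -0.60 and -0.63 in the other barcodes. In cDC1-like members it was -0.39 (-0.58 to -0.20) and -0.22 (-0.33 to -0.11), against -0.35 and -0.42. In T or NK cell-like members it was 0.38 in both libraries, against -0.62 in both. The intervals of the WT and KO macrophage-like members did not overlap, a difference without a replicate check, while in cDC1-like members the intervals of the 2 libraries overlapped.

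The 8 WT and 11 KO T or NK cell-like members had the highest cell cycle levels of these 3 classes. Their G1/S list stood at 6513 and 8842 CPM against 2393 and 2190 CPM in the other barcodes of the class, and their G2/M list at 8496 and 11507 CPM against 1553 and 1427 CPM. Their median depths were 6546.5 and 4868 UMIs, against 10145 and 8897 in macrophage-like and 6305 and 8048 in cDC1-like members. Deeper barcodes meet the rule more easily, and the part of depth in this order of classes was not tested. T cell receptor and CD3 genes were present, with Trbc2 at 2414 and 2700 CPM, and the cytotoxic and NK genes Gzma, Klrb1c, Ncr1 and Nkg7 had no UMI. Foxp3, the factor that defines regulatory T cells, had a UMI in 4 of 8 and 7 of 11 members, and the finer cluster led by Foxp3 held 6 members of 63 WT barcodes and 10 of 121 KO barcodes. Summed, Foxp3 was at 505 and 494 CPM in members and 580 and 380 CPM in the other barcodes of the class, so its level was similar in both. The cells had been sorted by flow cytometry for CD11b and CD11c, and the source of these T cell-like barcodes was not tested.

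The remaining members were few. Of the 10 KO mature DC-like members 8 lay in a finer cluster led by Il12b (8 of 183 barcodes) and 2 in one led by Dll4 (2 of 195), and in WT each held 1 (of 70 and 110 barcodes). The KO members had a G1/S level of 1805 CPM against 887 CPM in other mature DC-like barcodes and a G2/M level of 1666 against 697 CPM, lower than in the lineages above. Of the epithelial cell-like barcodes 6 of 58 in WT (10.3%) and 5 of 36 in KO (13.9%) were members, with all 7 epithelial markers detected at 8743 and 9925 CPM in sum. The WT ones also held 2546 CPM of macrophage markers, led by C1qb, against 123 CPM in the KO ones.

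Between the genotypes, members of a lineage were compared with 1 library each, so a called gene is only one that passed 2-fold. In macrophage-like members 22 genes (0.736%) were higher and 38 (1.27%) lower in KO than in WT. Dpys, which encodes dihydropyrimidinase, was at 38.5 CPM in WT and 174 CPM in KO members, a log2 ratio of 2.15 (1.42 to 3.00). It was higher by a similar amount in the other macrophage-like barcodes (2.22), so the difference was present in members and other barcodes alike. It had a UMI in 16 of 47 WT and 26 of 39 KO members. Gpnmb, a glycoprotein of lipid-laden macrophages, was at 22.3 and 155 CPM (2.74), with no such difference in the others (-0.07), but 28 of its 56 KO UMIs were in 1 barcode. Mmp9 (2.01) rested on 1 barcode as above and Il10 (2.03) on 2 and 7 UMIs, and both turned direction with at least 2 or at least 4 of the 8 genes (Mmp9 to -0.40 and -2.49, Il10 to -2.91 and -0.054). The histone methyltransferase gene Setd1b (1.84) rested on 10 and 27 UMIs. Of the lower genes, the immediate-early gene Fosb was at 124 and 30.4 CPM (-1.97, -3.10 to -1.09; others -0.68), and the nuclear RNA Neat1 at 118 and 33.2 CPM (-1.78, -2.86 to -0.91; others 0.10). S100a4 (-1.58) rested on 22 and 5 UMIs and turned to 0.15 with at least 2 of the 8 genes. Ocstamp (-1.57; others -0.92) and Gramd1b (-1.57; others -0.32) followed.

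In cDC1-like members 101 genes (3.63%) were higher and 100 (3.59%) lower in KO, with 19 WT barcodes and 140665 UMIs on 1 side. Mt2, a metallothionein gene, had no UMI in WT members, which allows up to 21.3 CPM over the group (3 counts), and 60 UMIs (124 CPM) in 21 of 57 KO members, so it was at least 5.80-fold higher in KO. In the other cDC1-like barcodes its log2 ratio was 1.29. Hspa1b, a heat-shock gene, was also at 0 in WT and at 177 CPM in KO, at least 8.32-fold higher, but 78 of its 86 UMIs were in 1 barcode. Vhl (1 and 39 UMIs), Stk38l (3 and 57) and Commd8 (2 and 40) were higher from almost no WT UMIs. Ccl17, a chemokine of mature dendritic cells, was at 1152 CPM in WT and 124 CPM in KO members (-3.21), while in the other cDC1-like barcodes it was 0.21; it was present in 11 of 19 WT and 13 of 57 KO members, and 79 of 162 WT UMIs were in 1 barcode. Il12b (-3.58) had all 22 WT UMIs in 1 barcode. Klrb1b was lower in members (-2.65) and others (-2.80) alike, whereas Dop1b (-2.82; others -0.11) and Fnip2 (-2.58; others 0.00) were lower in members.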

How the data were processed

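Cells were pooled per genotype and profiled as 1 library each by single-cell RNA-seq. The labels name 10x Genomics and the study's methods SeekOne MM, and the submitters' processing notes name Cell Ranger 2.1.1 and mm10. The deposited files hold raw UMI counts per gene and barcode, made by the authors with no normalization (32285 gene identifiers, 32158 of them in the GRCm38 annotation used for positions). The members and gene lists were chosen with earlier results of these data known.

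Barcodes were filtered as given above. Counts were scaled to 10000, log-transformed and clustered in Seurat 5.3.0 (R 4.3.3) from 2000 variable features without 278 cell cycle genes of 9 lists, 20 components and resolution 0.8 (13 clusters; 19 at 1.2), non-proliferating barcodes only. A cluster was named when at least 3 markers of a type were among its 100 leading genes. A member took the class of at least 9 of its 15 neighbours. Classes with at least 10 members in each library were compared, by UMIs summed over barcodes, with a pseudocount of 0.5 UMI and a mean of at least 50 CPM. Named genes were the 8 rule genes, up to 4 members of each of 22 lists, the 10 higher and 10 lower genes outside the lists with the largest smaller ratio of both libraries, and the 5 with the largest ratio of KO over WT each way; 1 lower gene that the rule picked is not reported here. Sex-linked genes were left out, and Clec7a was not analysed here. Summed levels of whole lists were added without a filter. The call rule was tested on simulated counts with Python 3.11.15, numpy 2.4.6 and scipy 1.17.1. Thinning (seed 1), edgeR 4.0.16 TMM scaling and the other alternatives are in the closing section. Scrublet (scanpy 1.11.5) called 1 KO barcode and was not used.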

Additional observations from a re-analysis of the deposited data

Results flagged for a closer look

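Barcodes left out of the analysis held many that met the rule of 3 of 8 genes. Of the barcodes with over 4000 detected genes, 31 of 52 in WT (59.6%, interval 45.1 to 73.0) and 19 of 30 in KO (63.3%, 43.9 to 80.1) met it. Of those with over 10% mitochondrial UMIs, 9 of 266 in WT (3.38%, 1.56 to 6.33) and 24 of 344 in KO (6.98%, 4.52 to 10.2) did. The first pair lay far above the shares among kept barcodes, and the part of doublets and of depth in it was not tested.

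In cDC1-like barcodes 4 genes passed 2-fold in opposite directions in the 2 libraries. Ccl17 had log2 ratios of proliferating over other barcodes of 1.10 in WT and -2.32 in KO, which differ by 3.42. Hspa1a, a heat-shock gene, had -1.44 and 2.36, which differ by -3.80, and the spread of its UMIs over barcodes was not examined. Fnip2 had 1.45 and -1.14 (difference 2.58), and Gca, which encodes grancalcin, 1.00 and -1.09 (difference 2.09). With 1 library per genotype these differences were not tested.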

How the results depend on the processing

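No paired analysis was possible because each genotype had 1 library, and the planned removal of Scrublet calls gave no values. The log2 ratio of KO over WT was 0.38 for the share of each library with at least 2 of the 8 genes. For cDC1-like barcodes thinned to 1000 UMIs it was -0.42 for the share and 0.12 for the makeup, and with classes by the highest mean marker level the makeup gave 2.104. The other alternatives moved these ratios by less than their counting intervals. Counts of genes past 2-fold depended on the settings far more. In macrophage-like barcodes the count of genes higher in members (41) became 13 with at least 2 and 77 with at least 4 of the 8 genes, 116 with a mean of 20 CPM, 2850 with no filter but 1 UMI and 62 with the mean over barcodes of CPM. The count of lower genes (11) became in the same order 2, 23, 24 and 153, and it was 17 with TMM, 3 with the other barcodes weighted to the cluster makeup, 6 within the Htr2b-led cluster and 21 with at least 2 of the 6 genes without Stmn1 and Mki67. In cDC1-like barcodes the higher genes (59) became 39 with at least 2 genes, 180 at 20 CPM and 1952 with no filter, and the lower genes (11) became 27 at most 5% mitochondrial UMIs, 1 with at least 2 genes, 1 with a pseudocount of 5 UMIs, 28 at 20 CPM, 136 with no filter and 5 with the mean over barcodes. For KO over WT in macrophage-like members, the higher genes (22) became 43 at most 5% mitochondrial UMIs, 11 with no upper limit on detected genes, 4 with at least 2 and 37 with at least 4 genes, 146 at 20 CPM, 1661 with no filter and 43 with the mean over barcodes. The lower genes (38) became in the same order 68, 19, 23, 123, 199, 1917 and 73, and 13 with a pseudocount of 5, 58 within the Htr2b-led cluster and 67 with the 6 genes. In cDC1-like members the higher genes (101) became 196 at most 5% mitochondrial UMIs, 66 with at least 2 genes, 428 with classes by marker level, 14 with a pseudocount of 5, 368 at 20 CPM, 1464 with no filter and 170 with the mean over barcodes, and the lower genes (100) became 216, 522, 157, 327 and 3811 at 5% mitochondrial UMIs, by marker level, with a pseudocount of 5, at 20 CPM and with no filter. The causes of these moves were not tested. Single genes turned direction as follows: Ccl24 (proliferating over other, mean log2 ratio) to 0.12 with the weighted and 1.08 with the Htr2b-led barcodes, Phlda1 to -0.23 and Rhoc to 0.42 in cDC1-like barcodes by marker level, and for KO over WT in macrophage-like members Il10 to -2.91 and -0.054 with at least 2 and 4 genes, Mmp9 to -0.40, -2.49, -2.03 and -1.74 with at least 2, at least 4, the 6 genes and within the Htr2b-led cluster, and S100a4 to 0.15 with at least 2 genes. TMM moved the median log2 ratio of all tested genes to -0.18 (WT) and -0.10 (KO) in cDC1-like barcodes, and a pseudocount of 5 moved it to 0.28 and 0.07 there and to -0.20 for KO over WT, and to 0.11 and 0.14 in macrophage-like barcodes. With 19 WT cDC1-like members, genes at a few UMIs cannot be ordered between libraries.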

Other observations

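Mki67 RNA also occurred in barcodes that did not meet the rule. It had a UMI in 29.8% of WT and 19.5% of KO non-proliferating cDC1-like barcodes (130 and 69.0 CPM, against 249 and 167 CPM in members) and in 19.9% and 25.6% of non-proliferating mature DC-like barcodes (114 and 127 CPM). Top2a was seen there in only 2.13% and 1.77% of cDC1-like and 2.27% and 1.09% of mature DC-like barcodes, and Mki67 in 3.22% and 4.65% of neutrophil-like barcodes. Stmn1 had a UMI in 41.0% and 35.2% of non-proliferating macrophage-like barcodes and in 9.93% and 10.3% of cDC1-like ones.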
